A study of Homo sapiens with 6 samples.

Results

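The insulin-like growth factor (IGF) binding proteins IGFBP1 to IGFBP7 and the IGF receptors IGF1R and IGF2R were examined in irradiated HK-2, a cell line made by immortalizing epithelial cells of the human proximal tubule. The 9 genes were taken by their gene names from the deposited gene tables, in which 38648 genes and gene copies were listed under 34644 names, and each of the 9 was listed at a single locus. The study compared HK-2 cells transduced with a negative control lentivirus (IR+NC-LV, called control cells below, n = 3 libraries) with HK-2 cells transduced with a lentivirus that overexpresses the transcriptional regulator PRDM16 (IR+PR-LV, n = 3 libraries). Both groups were given one dose of 8 Gy of X-rays and were collected on day 7, so both carried a lentivirus and both were irradiated. No library of cells without irradiation was analysed here, and the comparison therefore speaks only of PRDM16 within irradiated cells of 1 line. The labels do not say that the 3 libraries of a group came from separate cultures, and p-values measure only the spread between these libraries.

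IGF-I and IGF-II are secreted peptides that act mainly through IGF1R, a receptor tyrosine kinase related to the insulin receptor. IGF2R, also known as the cation-independent mannose 6-phosphate receptor, carries lysosomal enzymes to their compartment and takes IGF-II up for degradation. The IGF binding proteins are secreted proteins that hold IGFs in the circulation and around cells, where they can limit or prolong IGF action, and several also bind cell surfaces or matrix. IGFBP1 to IGFBP6 bind IGFs with high affinity and IGFBP7 with low affinity, and several of the family, IGFBP3, IGFBP5 and IGFBP7 among them, are counted among the secreted products of senescent cells.

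The libraries held between 13407074 and 28540041 counts, and 3 counts, taken as the detection floor, corresponded to between 0.105 and 0.224 CPM (counts scaled by library size to a common total). PRDM16 was counted 2, 0 and 1 times in the control libraries and 14, 10 and 8 times in the IR+PR-LV libraries, 8.51 times as often per count sequenced (exact binomial 95% interval 2.66 to 43.4, counting error only). IR+NC-LV replicate 3 stood farthest from the other libraries, with root mean square differences of log2 CPM of 0.378 to 0.431 against 0.289 to 0.396 among the other 5. It was also the library with the fewest counts (13407074), and the part of depth in these differences was not tested. Of 11 proximal tubule markers, 2 reached a mean of 1 TPM (a level corrected for gene length and library size): GGT1 lay between 56.2 and 77.0 TPM and AQP1 between 2.39 and 3.64 TPM. LRP2, SLC22A6, SLC22A8 and HNF4A, which define the proximal tubule in the kidney, lay at or near 0 in every library, and the 11 summed to 77.4 to 80.8 TPM in control cells and 60.2 to 79.2 TPM in IR+PR-LV. Of 5 epithelial markers, 4 reached 1 TPM and the list summed to 1968 to 2051 and 1949 to 2424 TPM, with KRT8 between 772 and 969 TPM, whereas CDH1 stayed below 1 TPM in every library. Of the marker lists of other cell types, the fibroblast list (2 of 6 at 1 TPM or more) summed to 130 to 136 TPM in control cells and 106 to 150 TPM in IR+PR-LV, most of it LUM. The leukocyte list (2 of 5) summed to 187 to 205 and 159 to 175 TPM, most of it the lysosomal gene CD68, with PTPRC near 0. The endothelial list (0 of 5) summed to less than 1 TPM in every library. Their part in the results below was not tested. In bulk libraries, fewer cells of a type and less RNA per cell cannot be told apart.

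Coordinates are those of GRCh38 (hg38), from the exon positions in the deposited tables. IGFBP1 (chr7:45888488-45893660, plus strand) and IGFBP3 (chr7:45912245-45921272, minus strand) lie tail to tail with 18584 bases and no listed gene between them, and IGFBP2 (chr2:216632828-216664436, plus strand) and IGFBP5 (chr2:216672105-216695549, minus strand) lie in the same way with 7668 bases and no listed gene between them. IGFBP4 lies at chr17:40443450-40457725 (plus strand), IGFBP6 at chr12:53097667-53102340 (plus strand) and IGFBP7 at chr4:57030773-57110385 (minus strand). IGF1R lies at chr15:98648539-98964530 and IGF2R at chr6:159969082-160111504, both on the plus strand. The exons of IGFBP7 overlapped those of POLR2B on the opposite strand over 16.3% of their bases and those of IGFBP7-AS1 over 5.90%. The exons of IGF1R overlapped those of the antisense gene IRAIN over 8.48%, and the other 7 genes shared no exon base with another listed gene. The strand setting of the counting is not given in the sources used here. Without strand, reads in bases shared by opposite genes cannot be told apart. POLR2B held 3749 to 9426 counts in a library, whereas IGFBP7-AS1 held 0 to 5 and IRAIN 6 to 18.

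The 250 bases before the start of 4 of the binding protein genes are shown because these genes were tested here and differ widely in level, from IGFBP3 among the most abundant transcripts to IGFBP5, the gene with the largest difference between the groups. The set of RefSeq promoters used here (GRCh38.p14) held 7 of the 9 genes and lacked IGFBP1 and IGFBP7. The sequences are from this set. They run in the direction of the gene, and capitals mark TATAAA, the core of a TATA box, and GGGCGG, the core of a GC box, each searched on both strands with overlapping matches counted, so that GGGCGG on the other strand reads CCGCCC. They cover chr7:45921273-45921522 (minus strand) for IGFBP3, chr17:40443200-40443449 (plus strand) for IGFBP4, chr2:216695550-216695799 (minus strand) for IGFBP5 and chr12:53097417-53097666 (plus strand) for IGFBP6.
IGFBP3: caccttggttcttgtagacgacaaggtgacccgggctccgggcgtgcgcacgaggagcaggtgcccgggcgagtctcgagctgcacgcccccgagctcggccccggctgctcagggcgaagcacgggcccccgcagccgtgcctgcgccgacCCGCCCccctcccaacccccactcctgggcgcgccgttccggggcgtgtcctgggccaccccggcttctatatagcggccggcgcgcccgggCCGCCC
IGFBP4: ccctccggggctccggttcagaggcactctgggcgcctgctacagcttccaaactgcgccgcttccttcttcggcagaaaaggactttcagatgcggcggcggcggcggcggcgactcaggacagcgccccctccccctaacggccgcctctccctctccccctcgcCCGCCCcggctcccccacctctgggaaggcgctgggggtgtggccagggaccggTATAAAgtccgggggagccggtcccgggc
IGFBP5: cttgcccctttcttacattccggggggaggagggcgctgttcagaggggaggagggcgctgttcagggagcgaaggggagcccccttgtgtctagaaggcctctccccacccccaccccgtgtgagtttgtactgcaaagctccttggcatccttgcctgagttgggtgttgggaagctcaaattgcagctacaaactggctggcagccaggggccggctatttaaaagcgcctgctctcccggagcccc
IGFBP6: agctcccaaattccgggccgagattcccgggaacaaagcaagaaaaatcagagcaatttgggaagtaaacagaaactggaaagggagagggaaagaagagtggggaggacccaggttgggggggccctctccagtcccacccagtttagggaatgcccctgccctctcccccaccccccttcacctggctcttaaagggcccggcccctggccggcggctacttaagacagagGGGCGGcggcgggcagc

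TATAAA was found in 1 of the 4 windows, 29 bases before the start of IGFBP4, and on either strand in 10.7% of the 35116 RefSeq promoter windows of the same length. GGGCGG was found in 42.6% of all windows and here 2 times in IGFBP3, once each in IGFBP4 and IGFBP6, and not in IGFBP5. The dinucleotide CG occurred 32 times in the IGFBP3 window, 24 times in IGFBP4, 9 times in IGFBP6 and 8 times in IGFBP5, beside a median of 11 over all windows. The receptor windows, not printed, held 48 CG and 2 GGGCGG (IGF1R) and 33 CG and 6 GGGCGG (IGF2R). These matches describe the letters only, and a missing match says nothing about a factor.

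All 9 genes had counts, and their levels in irradiated HK-2 cells spanned from near the detection floor to among the most abundant transcripts. IGFBP7 had the highest mean over the 6 libraries and ranked 372 by TPM. It stood above 98.7% of the 28831 listed entries that were counted in some library, the base of the percentages that follow. IGFBP3 ranked 435 (above 98.5%), and its libraries overlapped with those of IGFBP7 in both groups. IGFBP6 and IGF2R followed without overlap between them, above 94.1% and 91.0% of the same entries. IGF1R (74.1%) and IGFBP4 (70.3%) came next and did not overlap in either group. IGFBP1 (56.5%) lay above IGFBP5 (53.3%) in all 3 IR+NC-LV libraries, and the pair overlapped in IR+PR-LV. The mean TPM of IGFBP7 was 243 times that of IGFBP5, and IGFBP2 lay below both.

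**Figure D1:**
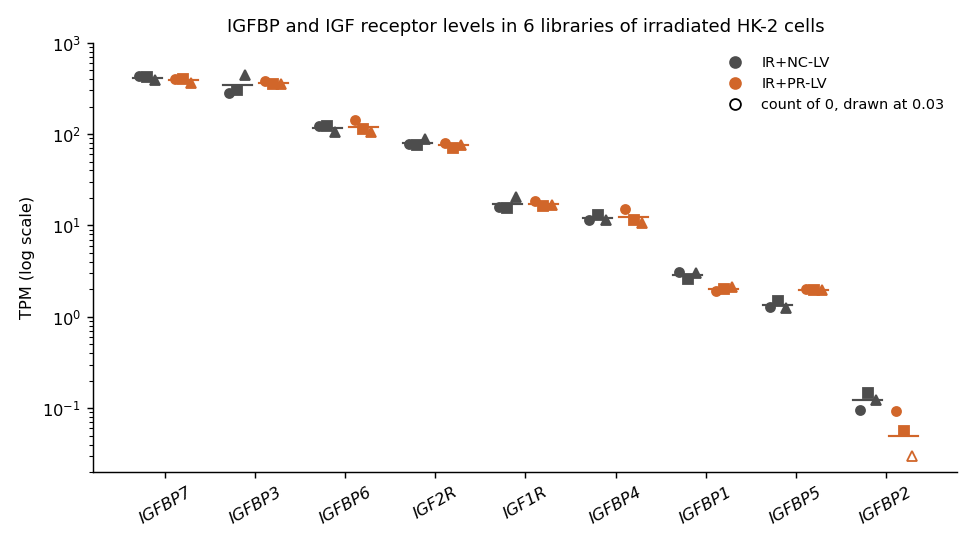
TPM on a log axis for the 9 genes in 3 IR+NC-LV (grey) and 3 IR+PR-LV (orange) libraries, with circles, squares and triangles for replicates 1, 2 and 3 and lines at the group means. IGFBP1 and IGFBP5 are separated by group in opposite directions, IGFBP3 is highest in IR+NC-LV replicate 3, and the open triangle is the IGFBP2 count of 0, drawn at 0.03.

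Against this range, the differences between IR+PR-LV and control cells were small. Of the 8 genes with enough counts to be tested, 0 passed an adjusted p of 0.05 in edgeR's quasi-likelihood test, where 10 of 15340 genes (0.0652%) did, 3 of them higher (0.0196%) and 7 lower (0.0456%) in IR+PR-LV. Adjusted p-values of the 8 genes ran from 0.307 to 0.890. Before adjustment 1 of the 8, IGFBP5, had a p under 0.05, beside 10.5% of all genes tested (4.55% higher and 5.97% lower), and DESeq2 likewise gave 0 past the adjusted threshold and 1 before adjustment. The log2 fold change was above 0 for 5 of the 8 and for 51.1% of all genes tested, and its median was 0.06, beside 0.0044 over all genes. The libraries of the groups did not overlap for 2 of the 8 genes, beside 17.0% of all genes: IGFBP5 was above (7.46% of all genes were) and IGFBP1 below (9.54%).

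**Figure D2:**
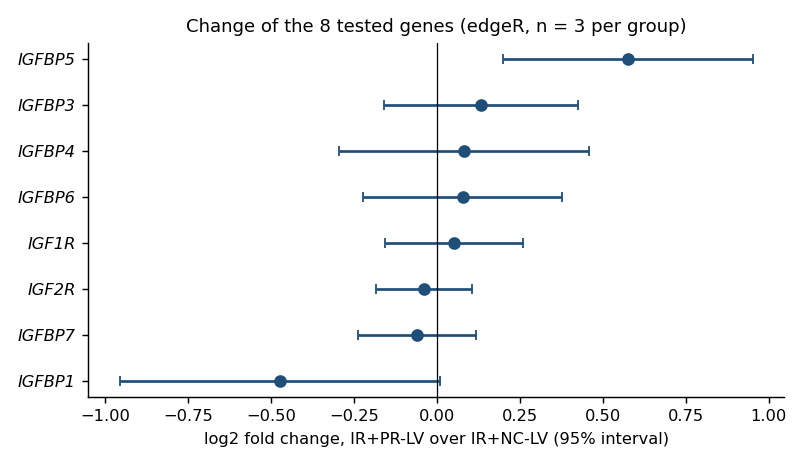
log2 fold change of IR+PR-LV over IR+NC-LV with its 95% interval from edgeR for the 8 tested genes, n = 3 libraries per group. The interval of IGFBP5 lies above 0 (0.20 to 0.95), that of IGFBP1 reaches from -0.95 to 0.01, and those of the other 6 span 0.

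IGFBP5, a matrix-binding member of the family that several proteases cleave, had the largest difference. Its levels were 1.27, 1.51 and 1.25 TPM in control cells and 1.99, 1.95 and 1.96 TPM in IR+PR-LV, means of 1.34 ± 0.143 and 1.97 ± 0.0215 TPM (SD, n = 3). The groups did not overlap, with all 3 IR+PR-LV libraries above the control libraries. The fitted fold was 1.49 (95% interval 1.15 to 1.93), a log2 fold change of 0.58 with a standard error of 0.17, and the edgeR p of 0.00706 became 0.307 after adjustment over all genes. The levels rested on 134 counts in control cells and 241 in IR+PR-LV. The coefficient of variation of the 3 IR+PR-LV libraries in normalized CPM was 1.60%, below the 11.2% that counting error alone gives on average, so the SD of these 3 values understates the error of their counts. DESeq2 gave a log2 fold change of 0.59, a p of 0.0322 and an adjusted p of 0.509, and adjusted p-values over all alternative settings ran from 0.203 to 0.752.

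IGFBP1, a binding protein whose transcription insulin represses in liver, lay in the other direction. It stood at 3.07, 2.60 and 2.98 TPM in control cells and at 1.90, 2.03 and 2.11 TPM in IR+PR-LV, means of 2.89 ± 0.249 and 2.01 ± 0.107 TPM (SD, n = 3). The groups did not overlap, with all 3 IR+PR-LV libraries below. These levels came from 68 and 60 counts in all, 15 to 27 in a library, and both coefficients of variation (7.60% and 4.85%) were below those of counting error (21.0% and 22.4%). The fitted fold was 0.721 (0.516 to 1.01), a log2 fold change of -0.47 with a standard error of 0.21. The edgeR p was 0.0664 and the adjusted p 0.502. Because the libraries differed less than counting error gives on average, the edgeR interval and p can understate the error. DESeq2 gave the same log2 fold change of -0.47 with a wider standard error of 0.44, a p of 0.288 and an adjusted p of 0.916.

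Since IGFBP5 and IGFBP1 lay in opposite directions, their ratio was also described. It was chosen after their values were seen, so that its separation by group follows from the choice. Its exact permutation p of 0.1 is therefore no support. IGFBP5 stood at 0.415, 0.579 and 0.418 of the IGFBP1 level in control cells and at 1.05, 0.962 and 0.930 in IR+PR-LV. Control cells held more IGFBP1 than IGFBP5 transcript in every library, and the IR+PR-LV libraries held nearly equal levels, on 15 to 27 IGFBP1 counts a library. The mean log2 ratio was -1.11 ± 0.274 in control cells and -0.03 ± 0.0915 in IR+PR-LV (SD, n = 3).

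IGFBP3, the main carrier of IGFs in blood and a gene that p53 can induce, was among the most abundant genes and varied most within the control group among the 8 tested. It was measured at 282, 301 and 447 TPM in control cells and at 385, 356 and 350 TPM in IR+PR-LV, means of 343 ± 90.3 and 363 ± 18.6 TPM (SD, n = 3). IR+NC-LV replicate 3 was the highest of the 6 libraries and the other two control libraries were the lowest, so that the groups overlapped. The coefficient of variation among the IR+NC-LV libraries was 21.5%, where 1.48% was due from counting, and 5.57% in IR+PR-LV. The log2 fold change was 0.13 with a standard error of 0.13 (95% interval -0.16 to 0.43, adjusted p from edgeR 0.761). Without IR+NC-LV replicate 3, which also stood apart over all genes, it was 0.32 with a standard error of 0.07, an edgeR p of 0.00199 and an adjusted p of 0.270. Without IR+NC-LV replicate 1 it was 0.02, and adjusted p-values over all alternatives ran from 0.270 to 0.986.

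IGFBP7, the low-affinity member that is also named IGFBP-related protein 1, was the most abundant of the family on average. Its levels were 432, 419 and 394 TPM in control cells and 399, 401 and 365 TPM in IR+PR-LV. The groups overlapped, with means of 415 ± 19.4 and 388 ± 20.2 TPM (SD, n = 3), a log2 fold change of -0.06 (95% interval -0.24 to 0.12) and an adjusted p of 0.827 in edgeR. It was -0.13 without IR+NC-LV replicate 3 and -0.0087 without IR+PR-LV replicate 3. IGFBP6, which prefers IGF-II to IGF-I, was measured at 121, 122 and 106 TPM in control cells and at 143, 114 and 105 TPM in IR+PR-LV. Here too the groups overlapped, IR+PR-LV replicate 1 being the highest and replicate 3 of the same group the lowest of the 6, and the log2 fold change was 0.08 (-0.22 to 0.38, edgeR adjusted p 0.869).

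IGFBP4, a soluble inhibitor of IGF action that pappalysin-1 cleaves, stood at 11.5, 12.9 and 11.5 TPM in control cells and at 15.3, 11.4 and 10.5 TPM in IR+PR-LV. IR+PR-LV held both the highest and the lowest library. The log2 fold change was 0.08 (95% interval -0.29 to 0.46, edgeR adjusted p 0.890), and it was -0.09 without IR+PR-LV replicate 1. IGFBP2, which lies beside IGFBP5 in the genome, had 1, 2 and 1 counts in control cells and 1, 1 and 0 in IR+PR-LV, too few to be tested. At 6 counts over the 6 libraries, 0.052 CPM, it lay below the detection floor of any single library, and its ratio of 0.399 (exact binomial 95% interval 0.0361 to 2.78) included a difference in either direction, so none was detectable at this depth.

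IGF1R, the receptor that signals for IGF-I and IGF-II, was measured at 16.0, 15.4 and 20.5 TPM in control cells and at 18.7, 16.4 and 16.9 TPM in IR+PR-LV. The groups overlapped and their means were 17.3 ± 2.82 and 17.4 ± 1.21 TPM (SD, n = 3). The log2 fold change was 0.05 with a 95% interval of -0.16 to 0.26 and the edgeR adjusted p was 0.876. IGF2R stood at 77.1, 75.6 and 87.4 TPM in control cells and at 80.7, 71.0 and 75.3 TPM in IR+PR-LV. The control library with the highest IGF2R level was again replicate 3, and the groups overlapped. Its log2 fold change of -0.04 had the narrowest interval of the 8 genes (-0.18 to 0.11, fold 0.881 to 1.08, edgeR adjusted p 0.863), on 17499 and 20677 counts, and lay between -0.088 and -0.0010 with a library left out.

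The receptors were also compared with each other. IGF1R stood at 0.208, 0.204 and 0.235 of the IGF2R level in control cells and at 0.232, 0.232 and 0.225 in IR+PR-LV. IGF2R transcript was thus more abundant than IGF1R transcript in all 6 libraries, and the ratio overlapped between groups (difference of the mean log2 ratio 0.09, exact permutation p 0.4). Against INSR, the insulin receptor gene, IGF1R was 2.78, 2.40 and 3.33 times as high in control cells and 2.69, 2.44 and 2.87 times in IR+PR-LV. IGF1R exceeded INSR in every library, and the difference between groups was -0.08 on the log2 scale (exact permutation p 0.7).

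Leaving out single libraries showed which values rested on 1 of them. IGFBP5 lay between 0.50 and 0.70 on the log2 scale and IGFBP1 between -0.53 and -0.41, whichever library was left out. The libraries of the groups did not overlap for 2 to 5 of the 8 genes. The 5 were reached without IR+NC-LV replicate 3 (IGFBP1, IGFBP3, IGFBP5, IGFBP7 and IGF1R), where 27.8% of all genes did not overlap, and 3 were reached without IR+PR-LV replicate 1 (37.2% of all genes). It was 2 of the 8 without control replicate 1 (22.3%) or 2 (28.2%), and without replicate 2 (22.2%) or 3 (26.6%) of IR+PR-LV.

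**Figure D3:**
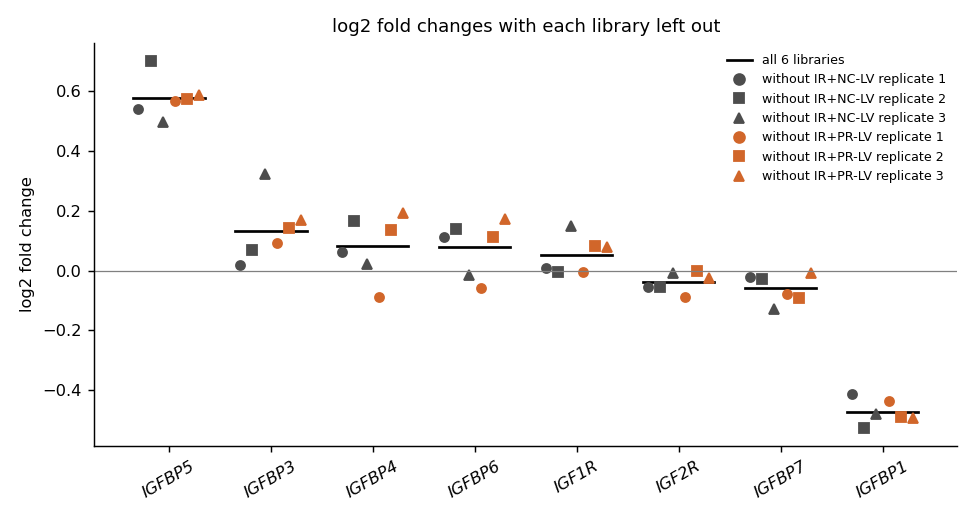
log2 fold change of each tested gene with all 6 libraries (black line) and with each library left out (points, colour and shape naming the library left out). IGFBP5 stays between 0.50 and 0.70 and IGFBP1 between -0.53 and -0.41, IGFBP3 moves to 0.32 without IR+NC-LV replicate 3, and IGFBP4, IGFBP6 and IGF1R cross 0.

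The make-up of the binding protein transcripts was then described by the share of each gene in the summed TPM of the 7 IGFBP genes. The sum was 852, 859 and 963 TPM in control cells and 946, 886 and 834 TPM in IR+PR-LV, and the groups overlapped (891 ± 62.1 and 889 ± 55.8 TPM, SD, n = 3, exact permutation p 1). IGFBP3 and IGFBP7 together made up 82.8% to 87.4% of it. IGFBP7 held 50.7%, 48.8% and 40.9% in control cells and 42.2%, 45.3% and 43.7% in IR+PR-LV, and IGFBP3 held 33.1%, 34.98% and 46.4% and then 40.7%, 40.2% and 41.9%. In IR+NC-LV replicate 3 alone IGFBP3 exceeded IGFBP7, by a ratio of 1.13, while the ratio was 0.653 to 0.965 in the other 5 libraries. IGFBP6 followed with 13.2% ± 1.88 and 13.5% ± 1.40 and IGFBP4 with 1.35% ± 0.152 and 1.39% ± 0.197 (SD, n = 3).

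The shares of the low genes were separated by group. They rest on the same counts as the levels of these genes above, so the separation is no further result. IGFBP1 held 0.325% ± 0.0316 in control cells and 0.227% ± 0.0261 in IR+PR-LV, and IGFBP5 0.151% ± 0.0230 and 0.222% ± 0.0121 (SD, n = 3). Both had a 2-sided exact permutation p of 0.1, the smallest that 3 against 3 libraries can give, and 0.233 after adjustment over the 7 shares. IGFBP2 had the same p, with shares from 0 to 0.0173% that rested on 0 to 2 counts a library. The exact permutation p was 0.5 for IGFBP3 and 0.4 for IGFBP7, with differences of 2.75 and -3.10 percentage points.

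**Figure D4:**
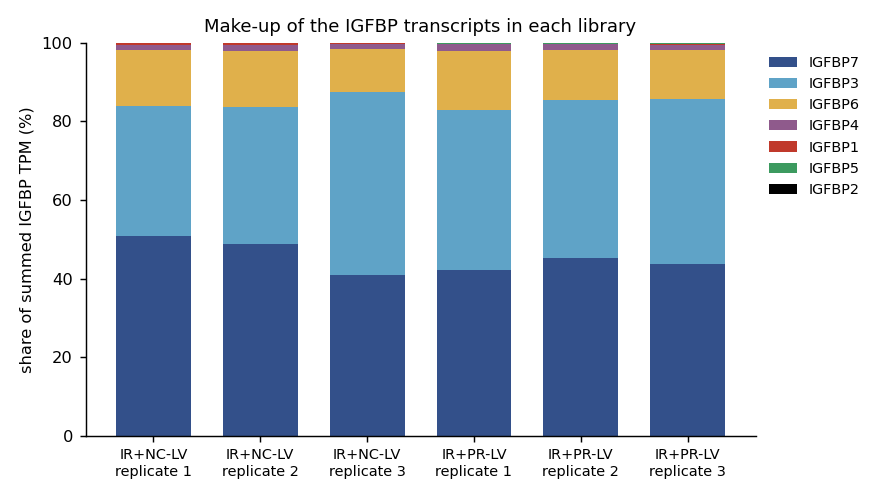
Share in percent of each IGFBP gene in the summed IGFBP TPM of each of the 6 libraries, as stacked bars from 0 to 100%. IGFBP7 and IGFBP3 fill 82.8% to 87.4% of every bar, and IGFBP3 is larger than IGFBP7 in IR+NC-LV replicate 3 only.

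The other genes of the IGF system were read from lists of their known roles. The ligands themselves had few counts or none. IGF2 and INS had no count in any library, IGF1 had 15 counts, 9 of them in IR+NC-LV replicate 3, and IGFALS, the acid-labile subunit that completes the circulating IGF complex, had 21 counts. None of these 4 could be tested. Of 74 genes in 7 lists, 72 had counts and 61 were tested, of which 0 passed the adjusted threshold in edgeR and 6 had an unadjusted p under 0.05, 2 higher and 4 lower, beside 10.5% of all genes tested (4.55% higher and 5.97% lower). The direction was divided, with 30 higher and 31 lower and a median log2 fold change of -0.0050. The groups did not overlap for 8 of the 61 (2 higher and 6 lower), beside 17.0% of all genes (7.46% higher and 9.54% lower). Neither share of the 61, taken over both directions, was above that of all genes.

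Of the lists, the proteases that cleave IGF binding proteins and their inhibitors held the 2 genes with the largest absolute log2 fold changes. Of 7 tested, 5 were lower and 2 higher, with a median log2 fold change of -0.15, and 2 had an unadjusted p under 0.05, both lower, beside 5.97% of all genes. ADAM9, a membrane metalloprotease able to cleave IGFBP5, was at 16.1, 14.4 and 24.7 TPM in control cells and at 9.01, 10.1 and 10.7 TPM in IR+PR-LV. All 3 IR+PR-LV libraries lay below all IR+NC-LV libraries, and IR+NC-LV replicate 3 was the highest. The log2 fold change was -0.83 with a standard error of 0.16 and an edgeR p of 0.000483, adjusted to 0.107. The adjusted p was 3.23e-05 with DESeq2 and 2.99e-07 in edgeR with no filter on low counts, and between 0.0609 and 0.313 in the other alternatives. Without IR+NC-LV replicate 3 the log2 fold change of ADAM9 was -0.61.

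The pappalysins are metalloproteases specific to IGF binding proteins. PAPPA2, which cleaves IGFBP3 and IGFBP5, had 113 counts over the 6 libraries and stood at 0.273, 0.276 and 0.602 TPM in control cells and at 0.174, 0.245 and 0.117 TPM in IR+PR-LV. The groups did not overlap, and replicate 3 was again the highest of the control libraries. Its log2 fold change was -0.94 with a standard error of 0.38, and the edgeR adjusted p was 0.435. PAPPA, the pappalysin-1 that acts on IGFBP4, had mean levels of 11.5 ± 2.03 and 10.2 ± 0.191 TPM (SD, n = 3), a log2 fold change of -0.12 and an adjusted p of 0.698 in edgeR. Of the stanniocalcins, which inhibit pappalysins, STC2 was abundant at 234 and 202 TPM on average (log2 fold change -0.17, edgeR adjusted p 0.523), and STC1 had 13 counts. The serine protease gene HTRA1 had means of 46.9 and 46.4 TPM and a log2 fold change of 0.03.

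Downstream of the receptors, INSR had a log2 fold change of 0.13, and the docking proteins IRS1 and IRS2 had -0.15 and -0.18, with edgeR adjusted p-values of 0.695, 0.553 and 0.485. Of the 11 tested genes of the insulin receptor family and its adaptors, 1 had an unadjusted p under 0.05, a count near the 10.5% of all genes. It was PTPN11, a phosphatase that docks to activated receptors (log2 fold change 0.14 with a standard error of 0.05, edgeR adjusted p 0.416). In the PI3K, AKT, mTOR and FOXO list 14 of 20 were lower and 6 higher, with a median of -0.04. Of these 20 genes, 2 had an unadjusted p under 0.05, both lower, beside 10.5% of all genes (5.97% lower). The groups did not overlap for 4, all lower, beside 9.54% of all genes lower and 17.0% in either direction. FOXO3, a transcription factor that AKT restrains, had a log2 fold change of -0.19 with a standard error of 0.06 (edgeR adjusted p 0.381). PIK3R1 and PIK3R2, regulatory subunits of PI3K, had -0.23 and 0.20 (edgeR adjusted p-values 0.397 and 0.507). PIK3R1 was at -0.15 without IR+NC-LV replicate 3, and PIK3R2 at 0.11 without IR+PR-LV replicate 1.

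The remaining lists lay near the median of all genes. Of the 13 tested genes of mannose 6-phosphate sorting and retromer, the route that IGF2R serves, 10 were higher and 3 lower with a median of 0.04. VPS35, the core retromer subunit that returns such receptors from endosomes, had the smallest p of them (0.21 with a standard error of 0.07, edgeR adjusted p 0.380). M6PR, the cation-dependent partner of IGF2R, had means of 309 and 315 TPM and a log2 fold change of 0.07. Of the 7 other tested genes with an IGFBP domain, 6 were higher and 1 lower with a median of 0.02. The RNA-binding proteins IGF2BP1, IGF2BP2 and IGF2BP3, named for IGF2 messenger RNA, were expressed at means of 40.5 to 70.0 TPM in both groups, with log2 fold changes of -0.02, 0.0046 and 0.01.

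**Figure D5:**
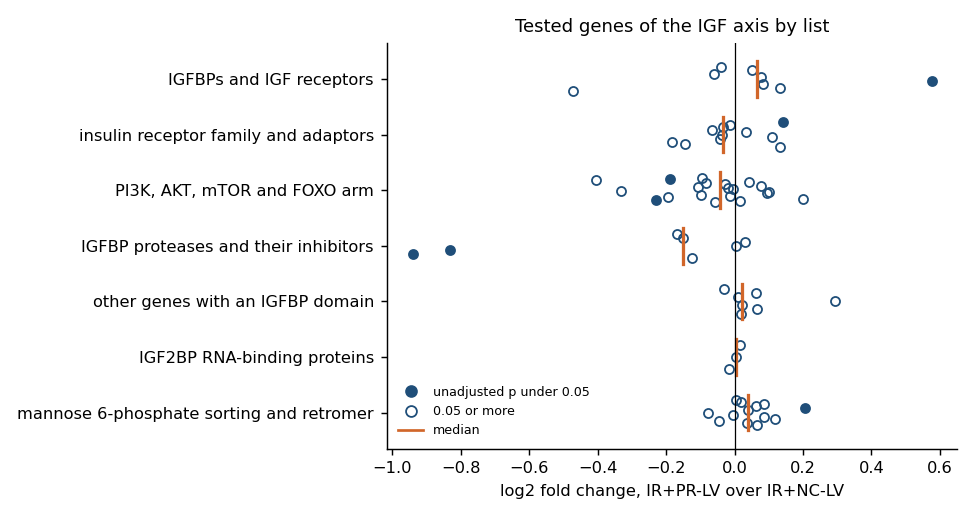
log2 fold change of IR+PR-LV over IR+NC-LV for each tested gene of the IGFBPs and IGF receptors and of 6 further lists, with filled points for an unadjusted edgeR p under 0.05 and orange lines at list medians. The points farthest from 0 are PAPPA2 (-0.94) and ADAM9 (-0.83) among the proteases, followed by IGFBP5 (0.58).

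The genes whose pattern over the 6 libraries was most like that of IGFBP5, the gene with the largest absolute log2 fold change of the 8, were sought among all 15340 tested genes by the root mean square difference of centred log2 CPM. They were EFCAB13-DT (0.0677), SEMA6B (0.103) and IMPA2 (0.112), with log2 fold changes of 0.62, 0.56 and 0.38. This likeness is a description over 6 libraries that share the 2 groups. The search used the values that hold the group difference, so the shared direction follows from it. The pattern of IGFBP5 itself rested on 31 to 107 counts a library.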

How the data were processed

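Poly(A)-selected RNA of 6 HK-2 libraries was sequenced by the study. The authors deposited raw counts per gene, with TPM and FPKM values. The submitters' processing notes name CASAVA, featureCounts 2.0.1, DESeq2 1.16.1 and the build hg38, while the aligner, annotation release and strand setting are not given in the sources used here. The deposited TPM equalled that recomputed from counts and gene lengths to within 2.0e-11. The deposited FPKM was not used.

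Counts were tested with edgeR 4.0.16 in R 4.3.3 by the quasi-likelihood test, with TMM factors of 0.981 to 1.04 and no covariate. Genes were kept by filterByExpr, which required both its minimum count of 10 and a total of at least 15. Benjamini-Hochberg adjustment was over 15340 genes and gene copies, with a threshold of 0.05. Standard errors were derived from the F statistic. Levels between genes are in TPM. CPM is TMM-normalized, except for the detection floor and the CPM of IGFBP2 over all libraries, which used total counts without TMM factors. Centred log2 CPM used a prior count of 2. Shares and ratios of TPM were compared by 2-sided exact permutation tests. Depth ran from 13407074 to 28540041 counts, and the intervals and the floor of 3 counts hold for counting error alone, because PCR copies of a molecule were not told apart.

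Alternatives were DESeq2 1.42.0, upper-quartile or RLE normalization, no filter on low counts, at least 10 counts in every library, copies of a gene name summed, the replicate number as a block and each library left out. Leaving out libraries for ratios and for overlap counts, and all alternatives for genes outside the 9, were added after seeing the data. The procedure was tested on simulated counts. The genes and lists were chosen with earlier results of these data known. Named were the 9 genes, PRDM16, 15 genes of the IGF lists chosen by role, the 3 genes of these lists with the smallest p in each direction, and the 3 genes most like the one of the 8 with the largest absolute log2 fold change. Outside this rule, INS, marker genes and the genes that overlap IGFBP7 and IGF1R are named. The ratio of IGFBP5 to IGFBP1 was chosen after its values were seen, so its permutation p is not used as support.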

Additional observations from a re-analysis of the deposited data

How the results depend on the processing

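None of the 9 genes passed the adjusted threshold in any setting. Of 104 alternative log2 fold changes of the tested genes, 99 kept their direction and 5 reversed. The number of all genes past the threshold was 10 and became 342 with no filter on low counts, 166 with DESeq2, and between 1 (without replicate 1 of the control cells or replicate 3 of IR+PR-LV) and 28 (without IR+NC-LV replicate 2) with a library left out, 16 of them without IR+NC-LV replicate 3. Other normalizations, a stricter filter and summed copies gave 9 to 12. With a library left out, the log2 fold change ran from -0.0056 to 0.15 for IGF1R, from -0.089 to 0.19 for IGFBP4 and from -0.060 to 0.17 for IGFBP6, which changed sign, and from -0.13 to -0.0087 for IGFBP7 and from -0.088 to -0.0010 for IGF2R, which did not. The difference in share ran from -0.0725 to 0.115 percentage points for IGFBP4 and from -0.745 to 0.881 for IGFBP6, and that of the log2 ratio of IGF1R to INSR from -0.19 to 0.042. The share difference of IGFBP3 ran from 0.226 to 6.88 points and that of IGFBP7 from -6.04 to -1.13. The number of the 8 genes at an unadjusted p under 0.05 was 1, and 2 without IR+NC-LV replicate 3. The cause of these shifts was not tested.

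Same-numbered libraries of the groups deviated together only weakly (correlations of -0.0088, 0.0514 and 0.0706), so the numbers were not taken as pairs. With the replicate block 3 genes passed, 1 higher and 2 lower, and 0 of the 9.

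IGFBP2 was fitted only with no filter on low counts (log2 fold change -1.12, edgeR adjusted p 0.784) and with DESeq2 (-1.25, no adjusted p). Depth limits IGFBP1, IGFBP2 and IGFBP5, whose counting errors are the largest of the 9, and the spread between control libraries limits IGFBP3.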
